A study of Mus musculus with 6 samples.

Results

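The star strands of 36 miRNA hairpins were examined in whole mouse aortas. An asterisk after a miRNA name marks, in the older nomenclature used on these array cards, the strand of a hairpin that was regarded as the minor product. The 36 star strands were chosen by name alone from the 596 mouse miRNA assays of the table: the name ends in an asterisk and carries let-7 or a miR number below 290, with miR-127, miR-134, miR-136 and miR-154 left out. Low numbers belong mostly to hairpins described early and shared between vertebrates, but conservation itself was not assessed. For 34 of the 36 star strands the table also lists the partner strand of the same hairpin, and for miR-125b* and miR-196a* no partner carries the matching name.

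The RNA came from aortas of Apoe-/- mice fed a high-fat diet (HFD) for 4 weeks, with 3 mice in each of 2 groups. EC-Dicerflox mice were VE-Cadherin-CreERT2 Dicer1flox/flox/Apoe-/-, and EC-DicerWT mice were VE-Cadherin-CreERT2 Dicer1WT/WT/Apoe-/- littermates, so that both groups carried the Cre transgene and lacked ApoE. Tamoxifen was injected into both groups on 5 days, at 2 mg for each 20 g of weight. The mice were 6 to 8 weeks old when the diet began, which was after the injections. The labels call the mice male, whereas the study's methods call them female. Cre was driven by the promoter of VE-cadherin, a junction protein of endothelial cells (ECs), and the RNA came from the whole vessel wall, in which ECs are a minor cell type. Dicer1 mRNA was not measured on these cards. In RNA from a whole vessel, fewer cells of a type and less of a miRNA per cell cannot be told apart.

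A miRNA hairpin is cut by Dicer into a short duplex of a 5p and a 3p strand. The duplex is taken up by an Argonaute protein, in which the guide strand stays and pairs with target mRNAs, while the passenger strand tends to be short-lived. Which strand is kept is known to depend on how loosely the duplex is paired at each end and on the first base of each strand, with a preference for U.

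The sequences that carry the results are shown first. They were taken from RefSeq (mouse build GRCm38.p6) under the current arm name of each assay. Of the 36 star strands, 31 were found there. Of 35 partner strands, with miR-125b-5p counted here for miR-125b*, 30 were found. Capitals mark the seed, bases 2 to 8 counted from the 5′ end, which selects target mRNAs. The first set holds the hairpins with both strands present in all 6 aortas whose star strand had the lower CT in each aorta. For miR-34c, only the star strand is shown. The miR-193 hairpin overlaps no other listed gene, and miR-34c* lies within the gene spans of Btg4 and Hoatz.
miR-193* (miR-193a-5p, chr11:79711975-79711996, + strand): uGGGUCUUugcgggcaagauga
miR-193 (miR-193a-3p, chr11:79712009-79712030, + strand): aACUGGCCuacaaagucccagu
miR-34c* (miR-34c-3p, chr9:51103044-51103065, - strand): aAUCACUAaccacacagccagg

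The second set holds the hairpins in which the star strand was lower than its partner by the smallest differences. miR-18a belongs to the miR-17 to miR-92a cluster, miR-28 lies within the gene span of Lpp, and miR-31 within that of Gm49890.
miR-18a* (miR-18a-3p, chr14:115043908-115043929, + strand): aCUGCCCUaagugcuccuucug
miR-18a (miR-18a-5p, chr14:115043867-115043889, + strand): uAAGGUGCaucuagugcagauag
miR-29b* (miR-29b-1-5p, chr6:31063067-31063088, - strand): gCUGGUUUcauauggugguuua
miR-29b (miR-29b-3p, chr6:31063025-31063047, - strand): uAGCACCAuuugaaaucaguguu
miR-28* (miR-28a-3p, chr16:24827908-24827929, + strand): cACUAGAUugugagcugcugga
miR-28 (miR-28a-5p, chr16:24827868-24827889, + strand): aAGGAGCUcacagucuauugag
miR-31* (miR-31-3p, chr4:88910577-88910599, - strand): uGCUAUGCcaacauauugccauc
miR-31 (miR-31-5p, chr4:88910614-88910635, - strand): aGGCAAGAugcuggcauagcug

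The third set holds the star strand with the lowest CT of all, miR-24-2*, and star strands far below their partners. miR-191 lies within the gene span of Dalrd3, miR-21 within that of Vmp1 and miR-10b within those of Hoxd3 and Hoxd4.
miR-24-2* (miR-24-2-5p, chr8:84208839-84208860, + strand): gUGCCUACugagcugaaacagu
miR-24 (miR-24-3p, chr8:84208875-84208896, + strand): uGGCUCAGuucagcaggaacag
miR-191* (miR-191-3p, chr9:108568367-108568388, + strand): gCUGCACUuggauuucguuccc
miR-191 (miR-191-5p, chr9:108568325-108568347, + strand): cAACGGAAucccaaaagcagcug
miR-21* (miR-21a-3p, chr11:86584082-86584103, - strand): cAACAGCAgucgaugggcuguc
miR-21 (miR-21a-5p, chr11:86584120-86584141, - strand): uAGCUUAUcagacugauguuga
miR-10b* (miR-10b-3p, chr2:74726114-74726135, + strand): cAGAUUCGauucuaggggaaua
miR-10b (miR-10b-5p, chr2:74726074-74726096, + strand): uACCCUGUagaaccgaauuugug

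The last set shows the only seed that star strands shared. The 31 star sequences held 30 distinct seeds, and miR-17* and miR-20b* had CUGCAGU in common, whereas miR-20a* of the same family had a different seed.
miR-17* (miR-17-3p, chr14:115043721-115043742, + strand): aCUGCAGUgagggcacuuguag
miR-20b* (miR-20b-3p, chrX:52742122-52742143, - strand): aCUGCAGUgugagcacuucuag
miR-20a* (miR-20a-3p, chr14:115044219-115044240, + strand): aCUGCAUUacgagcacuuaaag

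Levels were measured by quantitative PCR as threshold cycles (CT), the cycle at which the signal of an assay crosses a set level. The less RNA a well holds, the later the crossing, each cycle standing for a factor of 2 where amplification is complete, and wells without signal are listed at 40. Among all 596 assays, between 375 (EC-Dicerflox replicate 3) and 415 gave a CT under 40 per aorta. The smooth muscle miRNAs miR-143 and miR-145 had mean CTs of 17.4 and 14.8. The endothelial miR-126-3p had a mean CT of 18.2, and miR-126-5p of 21.9. Leukocyte miRNAs (miR-223, 21.1) and the liver miRNA miR-122 (24.7) were present in all 6 aortas as well. So were miR-133a (19.2), miR-451 (21.9), miR-9 (24.9) and miR-203. In contrast, miR-208, miR-205 and miR-124 gave a signal in 3, 4 and 3 aortas. The CTs of these miRNAs alone do not give the share of each cell type in the RNA. EC-Dicerflox replicate 3 had the highest mean CT of the control RNAs (20.2, against 18.7 to 19.6 in the other aortas) and the highest median CT of the star strands (31.2). EC-DicerWT replicate 3 came next in both (19.6 and 30.1). Levels were therefore compared after normalization.

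Most of the star strands were present in the aorta. Of the 36, 32 (88.9%) gave a CT under 40 in at least 1 aorta and 27 (75%) in all 6. With a CT under 35 required, 29 (80.6%) were present in at least 1 aorta and 23 in all 6. Among the 28 other star assays of the table, 15 (53.6%) were present in at least 1 aorta and 10 (35.7%) in all 6. Of the 225 other assays in the same assay set, 63.6% were present in at least 1 aorta and 41.8% in all 6. Over all 596 assays, which include the partner strands, the shares were 77.3% and 58.7%, and 70.8% had a CT under 35 in at least 1 aorta. The partner strands were present more often, with 33 of 34 (97.1%) under 40 in all 6 aortas. The shares are descriptions of the lists, and the difference between them was not tested. The number of star strands with signal was 27, 30 and 27 in the EC-Dicerflox aortas and 29, 28 and 30 in the EC-DicerWT aortas, so the groups overlapped.

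The star strand with the lowest CT was miR-24-2*, from the miR-23a/27a/24-2 cluster. Its CTs were 20.9, 20.9 and 22.6 in EC-Dicerflox replicates 1 to 3 and 21.1, 21.1 and 22.0 in EC-DicerWT replicates 1 to 3. It was followed by miR-193* (mean 23.9), miR-31* (24.2), let-7a* (24.6) and miR-28* (24.8). CTs of different assays can be compared only as far as the assays amplify alike, which was not measured. The next in order were miR-15a* (26.5), miR-29b* (27.5), let-7c-1* (27.7), miR-34c* (28.2) and miR-186* (28.2). Neighbours in this order differed by less than the spread over the 6 aortas, which was 0.71 cycles (SD) for miR-24-2* and 1.03 cycles for miR-193*, with the exceptions of miR-24-2* against miR-193*, miR-28* against miR-15a* and miR-15a* against miR-29b*. The median CT over the 27 star strands present in all 6 aortas was 29.3, with miR-145* highest at 36.8.

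The star strands without any signal were miR-141*, miR-181A-2*, miR-19a* and miR-20b*. miR-203* was present in 4 aortas and miR-196a* in 2, both EC-DicerWT (CTs of 34.3 and 37.0). miR-133a*, miR-150* and miR-92a* gave a late signal in 1 aorta each, with CTs of 39.5, 39.8 and 39.8. Several of these had partners with strong signals: the partner had a mean CT of 19.2 for miR-133a, a miRNA of striated and smooth muscle, 20.5 for the lymphocyte miRNA miR-150, 21.5 for miR-92a, 23.1 for miR-181a, 25.1 for miR-20b and 25.2 for miR-19a. The weakest partner among them was the epithelial miR-141, at 32.1.

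**Figure D1:**
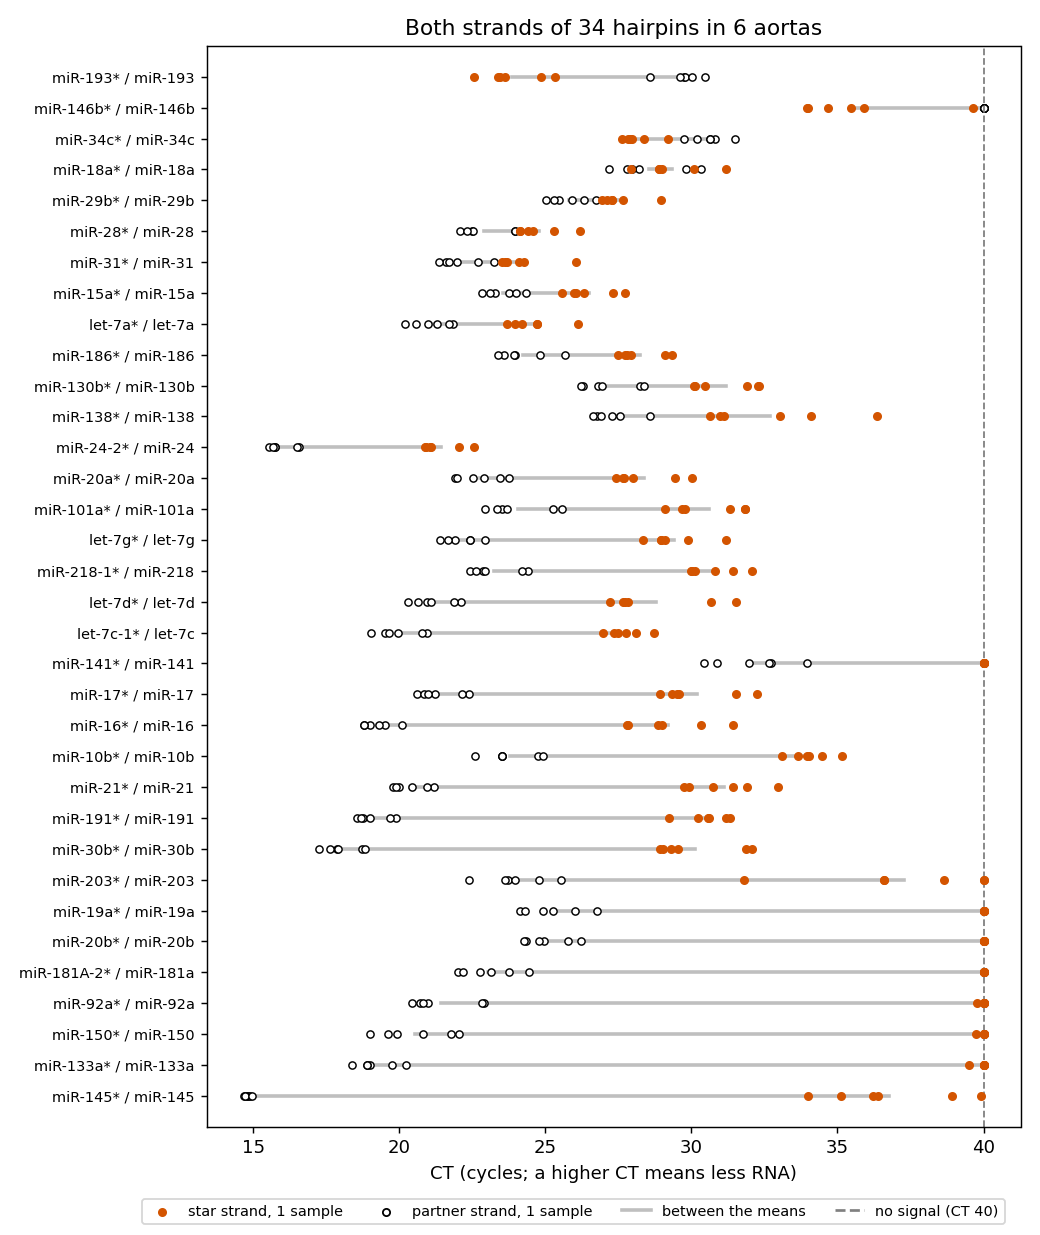
CT (x axis, in cycles, a higher CT meaning less RNA) of the star strand (filled) and the partner strand (open) of 34 hairpins in each of 6 aortas, sorted by the mean difference between the strands; the grey line joins the means, and the dashed line at 40 stands for no signal. The star strand lies to the left of its partner for miR-193, miR-146b and miR-34c, and to the right in the other 31 hairpins on the mean.

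In most hairpins the star strand gave the higher CT of the pair, by widely different amounts. Both strands were present in all 6 aortas for 25 hairpins, and the CT of the star strand minus that of the partner had a median of 5.62 cycles (quartiles 2.94 and 8.82). The star strand was lower than its partner in 23 hairpins and higher in 2, in each case in all 6 aortas. The difference from 0 passed an adjusted p of 0.05 in all 25 (limma, Benjamini-Hochberg over the 51 pairs of strands in the table). These p-values measure only the spread between mice, and not the offset between 2 assays on different cards. Over those 51 pairs, which include pairs named 5p and 3p, 66.7% were called with the star or 5p strand lower and 29.4% with it higher. Among the other star strands, 7 had a partner with both strands present in all 6 aortas, and the star strand was the higher in 4 of these (median difference -1.45 cycles). The SD of the difference over the 6 aortas had a median of 0.617 cycles, against 1.00 for the CT of the star strand and 0.711 for that of the partner. It was below the SD of the star strand in 22 of the 25 hairpins and below that of the partner in 17.

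The assays of all 36 star strands belong to the second of 2 sets of assays (cards), and those of all 34 partners to the first, as read from the style of the assay numbers. A difference between the strands and a difference between the cards therefore cannot be told apart. Control RNAs on both cards had CTs on the second card that differed from the first by between -1.44 (snoRNA135) and 0.934 cycles (Y1). Of 13 miRNA names on both cards, 6 gave a CT under 40 in all aortas on both, and the CT on the second card was higher in 3 of these, by 0.552 (miR-543) to 4.78 cycles (miR-10b), and lower in the other 3, by up to -2.01 cycles (miR-467b). miR-370 (27.6 on the first card, 40 on the second) and miR-449b (40 and 31.6) gave a signal in all 6 aortas on 1 card and none on the other. The assays under a shared name need not target the same sequence. How much of a strand difference comes from the assays was not tested.

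miR-193* was the star strand furthest above its partner. Its CTs were 23.4, 22.6 and 24.9 in EC-Dicerflox replicates 1 to 3 and 23.4, 23.6 and 25.3 in EC-DicerWT replicates 1 to 3. Those of miR-193 were 29.8, 28.6 and 30.5, and 29.8, 29.6 and 30.0. Every star value lay below every partner value, and the difference was -5.84 ± 0.62 cycles (SD, n = 6 aortas, range -6.38 to -4.72), with an adjusted p of 8.03e-07 by limma. None of the 6 names present on both cards in all aortas was lower on the second card by as much, whereas miR-449b was.

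miR-34c* was the other star strand above its partner. miR-34c belongs to the miR-34 family, which is known as a target of p53. The CTs of miR-34c* were 27.9, 28.0 and 29.2 in EC-Dicerflox aortas and 27.8, 27.6 and 28.4 in EC-DicerWT aortas, and those of miR-34c were 30.2, 29.7 and 31.5, and 30.8, 30.6 and 30.6. The 2 strands did not overlap, and the difference was -2.43 ± 0.48 cycles (SD, n = 6, and at least 1.77 cycles in size in every aorta), with an adjusted p of 1.18e-05 by limma. It was slightly larger in size than the -2.01 cycles of miR-467b, the most that any of the 6 names present on both cards in all aortas was lower on the second card. With control RNAs of the same card, the difference for miR-34c* was -2.11 cycles. miR-449b, without signal on the first card, was lower on the second by more than miR-34c* was below miR-34c.

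miR-146b* could be given only a bound. miR-146b is related to miR-146a, a brake on NF-κB signalling. The partner miR-146b was listed at 40 in all 6 aortas, the only partner without signal, whereas miR-146b* had CTs of 34.7, 33.99 and 35.9 in EC-Dicerflox and 33.97, 39.6 and 35.5 in EC-DicerWT aortas. The star signal was late in all 6 aortas, and EC-DicerWT replicate 2 was near the limit.

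In several hairpins the strands came close to each other. miR-18a* was 0.79 ± 0.29 cycles (SD, n = 6) above miR-18a in CT, with differences of 0.675, 1.10 and 0.855 in EC-Dicerflox and 0.779, 1.05 and 0.285 in EC-DicerWT aortas. All 6 were above 0, and the adjusted p by limma was 0.00273. The difference was 1.75 ± 0.62 cycles for miR-29b*, 1.91 ± 0.32 for miR-28*, 2.11 ± 0.39 for miR-31* and 2.94 ± 0.86 for miR-15a*. miR-29 miRNAs are known to target collagen mRNAs, and miR-31 and miR-28 were among the hairpins with both strands at a mean CT below 25. For miR-28*, the 6 differences ran from 1.34 to 2.26 cycles, and for miR-31* from 1.60 to 2.79 cycles. These 5 differences were smaller than the 3.44 and 4.78 cycles by which miR-322 and miR-10b were higher on the second card than on the first.

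At the other end, miR-145* was 21.9 ± 2.26 cycles below the smooth muscle miRNA miR-145 in abundance, the widest difference of the 25. miR-145 had the lowest CT of the partners, between 14.69 and 14.96 in all 6 aortas. Its SD over the aortas was 0.098 cycles, the smallest of the 25 partners, of which the next was 0.449 (miR-24), while the mean CT of the control RNAs ran from 18.7 to 20.2. Whether the miR-145 assay still followed the amount of RNA at this level was not tested, so that the difference for miR-145* is uncertain. The star strand had CTs of 36.2, 36.4 and 35.1 in EC-Dicerflox and 33.99, 39.9 and 38.9 in EC-DicerWT aortas, so the spread of the difference was mostly that of the late star signal, at 39.9 close to the limit in EC-DicerWT replicate 2. The difference was 12.1 ± 0.90 cycles for miR-30b*, 11.4 ± 0.51 for miR-191*, 10.7 ± 0.99 for miR-21* and 10.3 ± 0.90 for miR-10b*. For miR-10b* it was 5.48 ± 1.10 cycles against the second miR-10b assay of the table, which lies on the same card as the star strand. For miR-125b*, which has no partner by name, the difference from miR-125b-5p was 10.4 ± 0.55 cycles, a pairing made after the table was seen. A difference above 10 cycles was found in 5 of the 25 hairpins and above 5 cycles in 15.

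**Figure D2:**
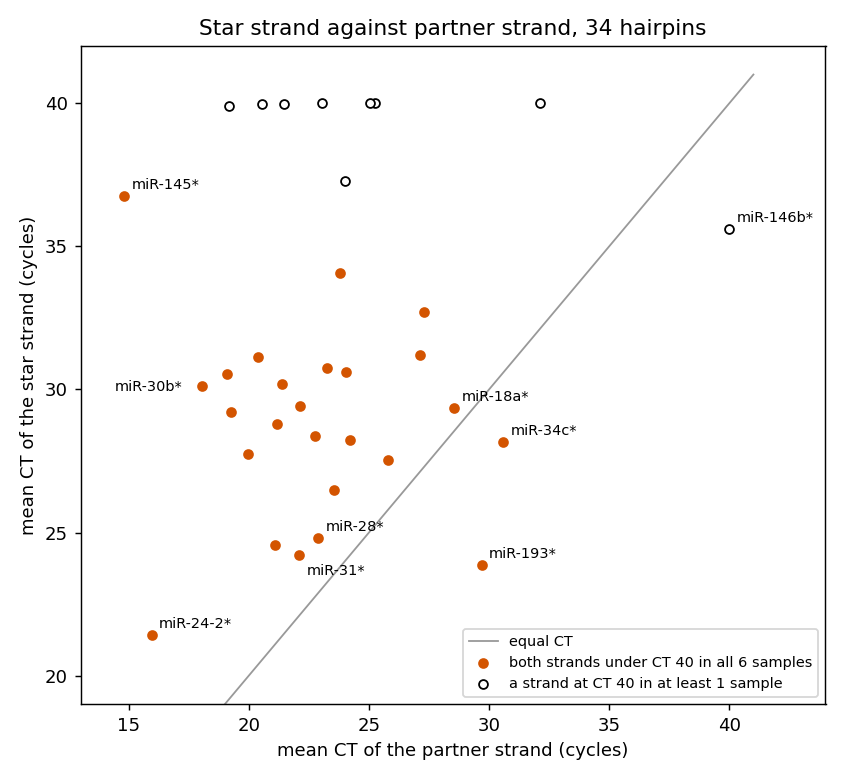
Mean CT over 6 aortas of the star strand (y axis, cycles) against that of its partner (x axis, cycles) for 34 hairpins, with a line at equal CT and open points where a strand gave no signal in at least 1 aorta. miR-193*, miR-34c* and miR-146b* lie under the line, and miR-30b* and miR-24-2* show how far star strands of well-detected partners lay apart.

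Across hairpins with both strands present in all 6 aortas, the level of a star strand showed no clear relation to that of its partner. This choice leaves out hairpins with a strong partner and a star strand missing in most aortas, such as miR-133a and miR-150. Over the 25 hairpins, the mean CTs of the strands had a Pearson's r of -0.0874 and a Spearman's rho of -0.0331, which are descriptions, since hairpins are not replicates and the strands of a set share a card. The sign rested on miR-145, without which r was 0.148 and rho 0.093 over 24 hairpins. Hairpins of 1 cluster differed too. In the miR-17 to miR-92a cluster, whose miRNAs promote growth and act in ECs and blood vessels, the difference was 8.82 cycles for miR-17*, 5.62 for miR-20a* and 0.79 for miR-18a*, whereas miR-19a* had no signal and miR-92a* a signal in 1 aorta. In the miR-15a/16-1 pair, which lies in Dleu2, it was 2.94 cycles for miR-15a* and 9.95 for miR-16*, where the miR-16 strand is also encoded by a second gene of the table, so that its assay reads more than this hairpin. The 4 let-7 star strands were all present in all 6 aortas. Their differences were 3.47 cycles for let-7a*, 7.29 for let-7g*, 7.62 for let-7d* and 7.75 for let-7c-1*.

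The arm and the first base of the strands were read from the sequences and were not used to choose the star strands. The star strand was the 5p strand in 10 of the 35 hairpins with a known arm name, and 5 of these were present in all 6 aortas, against 22 of the 25 on the 3p arm. Among the 25 hairpins with both strands measured, the difference had a median of 4.05 cycles where the star was 5p (5 hairpins) and 7.39 cycles where it was 3p (20 hairpins), and each class held 1 hairpin with the star strand higher, miR-193* and miR-34c*. The first base was A in 12, C in 11, G in 5 and U in 3 of the 31 star sequences. In the 30 partner sequences it was U in 18, A in 6, C in 5 and G in 1. In 22 hairpins with both sequences, the star began with U and the partner with another base in 2, miR-193* (-5.84 cycles) and miR-31* (2.11 cycles). The reverse held in 12, with a median difference of 6.45 cycles (range 0.79 to 10.7). Neither strand began with U in 7, with a median of 5.40 cycles, and both did in miR-101a* (6.54 cycles). The partner of 6 hairpins is encoded by more than 1 gene of the table, so that its assay also reads other hairpins, and there the median difference was 6.48 cycles, against 4.84 in the other 16. No test was made of these classes, which are small and differ in several of these features at once.

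The comparison of EC-Dicerflox with EC-DicerWT aortas asks whether loss of endothelial Dicer changes star strands in the whole vessel wall. Levels were expressed as minus delta CT, the mean CT of U6 and snoRNA135 minus that of the assay, which is a log2 scale. No star strand passed the test between the groups: of the 32 tested, 0 had an unadjusted p under 0.05 by limma, where 14 of all 461 tested miRNAs (3.04%) did, 9 of them lower (1.95%) and 5 higher (1.08%) in EC-Dicerflox. After adjustment by Benjamini-Hochberg, 0 of 461 passed, and the smallest adjusted p of a star strand was 0.923. The log2 fold change was above 0 in 19 and below 0 in 13 star strands, with a median of 0.11, against 0.08 over all 461. The 19 include miR-133a*, miR-150* and miR-92a*, with a late signal in 1 aorta each, whose values rest on wells listed at 40 and on the control RNAs. In the 27 present in all 6 aortas, 15 were above and 12 below 0. Their estimates ran from -0.61 (miR-130b*) to 1.84 (miR-145*), with a median of 0.10, as over the 350 miRNAs present in all aortas (0.10). The split over the 32 depended on the control RNAs: it was 23 above and 9 below 0 with U6 alone and 14 above and 18 below with snoRNA202 alone, which moved the median of all miRNAs from 0.08 to -0.08.

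The smallest p-values belonged to miR-191* and miR-10b*. The minus delta CT of miR-191* was -10.3, -11.5 and -10.97 in EC-Dicerflox and -11.8, -11.6 and -11.7 in EC-DicerWT aortas. The groups did not overlap, with all EC-Dicerflox values higher, and the log2 fold change was 0.76 (SE 0.37, unadjusted limma p 0.0912, exact permutation p 0.1, two-sided, which is the smallest p that 3 against 3 samples allow). For miR-10b*, the values were -14.2, -15.3 and -13.4 against -15.2, -15.5 and -15.6. EC-Dicerflox replicate 2 lay between the EC-DicerWT values, and the log2 fold change was 1.09 (SE 0.53, unadjusted limma p 0.0913). Both CTs were late for miR-10b*, with means of 33.6 and 34.5. Without EC-Dicerflox replicate 2, both had an unadjusted limma p under 0.05 (0.0322 for miR-191* and 0.0126 for miR-10b*), and neither passed after adjustment. The log2 fold change of miR-191* was 0.46 (unadjusted limma p 0.247) without EC-Dicerflox replicate 1, and that of miR-10b* was 0.65 (unadjusted limma p 0.215) without EC-Dicerflox replicate 3.

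miR-193* was the other star strand whose groups did not overlap, so that this held for 2 of 32 star strands (6.25%), against 10.4% of all 461 miRNAs. Its minus delta CT was -4.50, -3.85 and -4.63 in EC-Dicerflox and -4.64, -4.66 and -5.71 in EC-DicerWT aortas. The groups nearly touched, and the log2 fold change was 0.68 (SE 0.43, unadjusted limma p 0.171). It was 0.32 without EC-DicerWT replicate 3 and 0.44 without EC-Dicerflox replicate 2. The 95% confidence interval of the log2 fold change ran from -0.41 to 1.76 for miR-193*, from -0.51 to 0.71 for miR-24-2* and from -0.88 to 0.35 for miR-34c*. The SE over the 27 star strands ran from 0.24 to 1.75, with a median of 0.43.

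**Figure D3:**
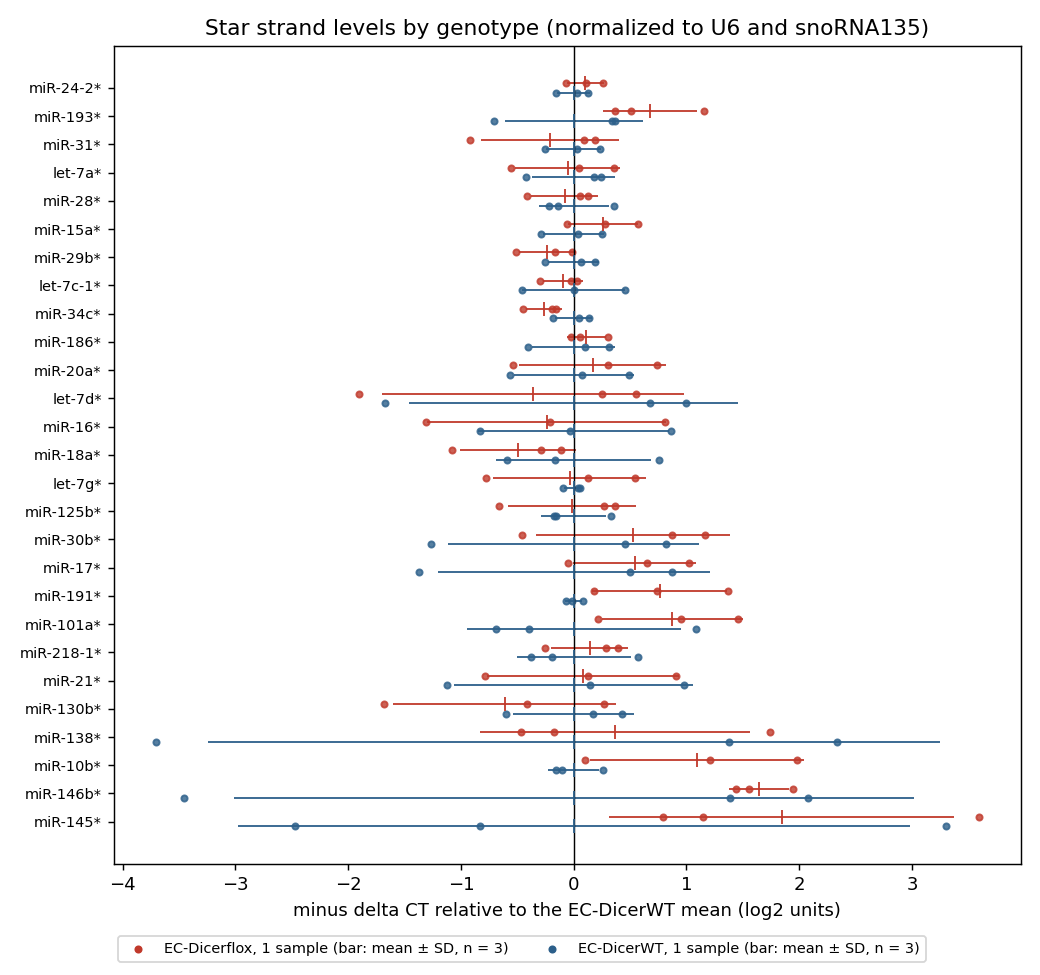
Minus delta CT of the 27 star strands with signal in all 6 aortas, relative to the EC-DicerWT mean of each (x axis, log2 units), ordered by mean CT from the lowest; points are single aortas, and bars show the mean ± SD of 3 mice per group. The groups overlap for all but miR-191* and miR-193*, and the spread is widest for the late signals of miR-138*, miR-146b* and miR-145*.

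By group of hairpins, 0 star strands passed an unadjusted p of 0.05 in any of them. The 4 let-7 star strands had log2 fold changes between -0.36 and -0.04. Of the 4 star strands with signal in the miR-17 to miR-92a cluster, 3 were above 0 and 1 below, with values from -0.49 (miR-18a*) to 0.54 (miR-17*). Of the 3, miR-92a* (0.08) had a signal only in EC-DicerWT replicate 3, at a CT of 39.8, so the control RNAs set its sign. miR-21*, from a miRNA that rises in injured and inflamed vessels, had a log2 fold change of 0.08, and miR-146b* 1.65, with a standard error above 1. A wider list of hairpins studied in vessels, inflammation and leukocytes held 18 star strands: the 4 of let-7, miR-10b*, miR-145*, miR-146b*, miR-150*, miR-17*, miR-18a*, miR-19a*, miR-20a*, miR-20b*, miR-21*, miR-24-2*, miR-29b*, miR-30b* and miR-92a*. A signal was seen for 16 of them, the same share as over all 36 (88.9%), and 10 were above and 6 below 0, with a median of 0.09. The 10 include miR-150* and miR-92a*, with a late signal in 1 aorta each, whose values rest on wells listed at 40 and on the control RNAs. Among the leukocyte markers, the log2 fold change was -0.38 for miR-142-3p, -0.43 for miR-150 and 0.17 for miR-223 (unadjusted limma p 0.33, 0.532 and 0.726). It was -0.996 for miR-142-5p, the other strand of the miR-142 hairpin (unadjusted limma p 0.00989, Benjamini-Hochberg adjusted p 0.923). The part of leukocytes in the star strand levels was not tested.

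The difference between the strands was compared between the genotypes in the same way. No hairpin passed the test: of the 25, 0 had an unadjusted p under 0.05 by limma, as was the case for 0 of all 51 pairs (0%), and the smallest adjusted p was 0.852. The median difference between the strands over the hairpins was 6.24, 5.76 and 6.24 cycles in EC-Dicerflox and 6.02, 6.00 and 5.99 cycles in EC-DicerWT aortas, and the groups overlapped. The strand difference was wider in EC-Dicerflox in 17 and narrower in 8, with a median change of 0.16 cycles. This direction rested on EC-Dicerflox replicate 3, without which it was wider in 9 and narrower in 16 (median -0.15), and with control RNAs of the same card it was wider in 13 and narrower in 12. The groups did not overlap in 0 of the 25 hairpins, against 5.88% of the 51 pairs.

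For the hairpins with the star strand higher, the strand difference was -6.00 and -5.68 cycles in EC-Dicerflox and EC-DicerWT for miR-193*, a change of -0.32 cycles (95% confidence interval -1.54 to 0.90). For miR-34c* it was -2.11 and -2.75 cycles, a change of 0.63 cycles (-0.21 to 1.47, unadjusted limma p 0.115). The smallest p was that of miR-29b* (0.11), with a change of 0.77 cycles (-0.23 to 1.77). The interval was narrowest for hairpins such as miR-28* (-0.42 to 1.09) and miR-218-1* (-0.74 to 0.79), and widest for miR-145* (-5.40 to 2.21).

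**Figure D4:**
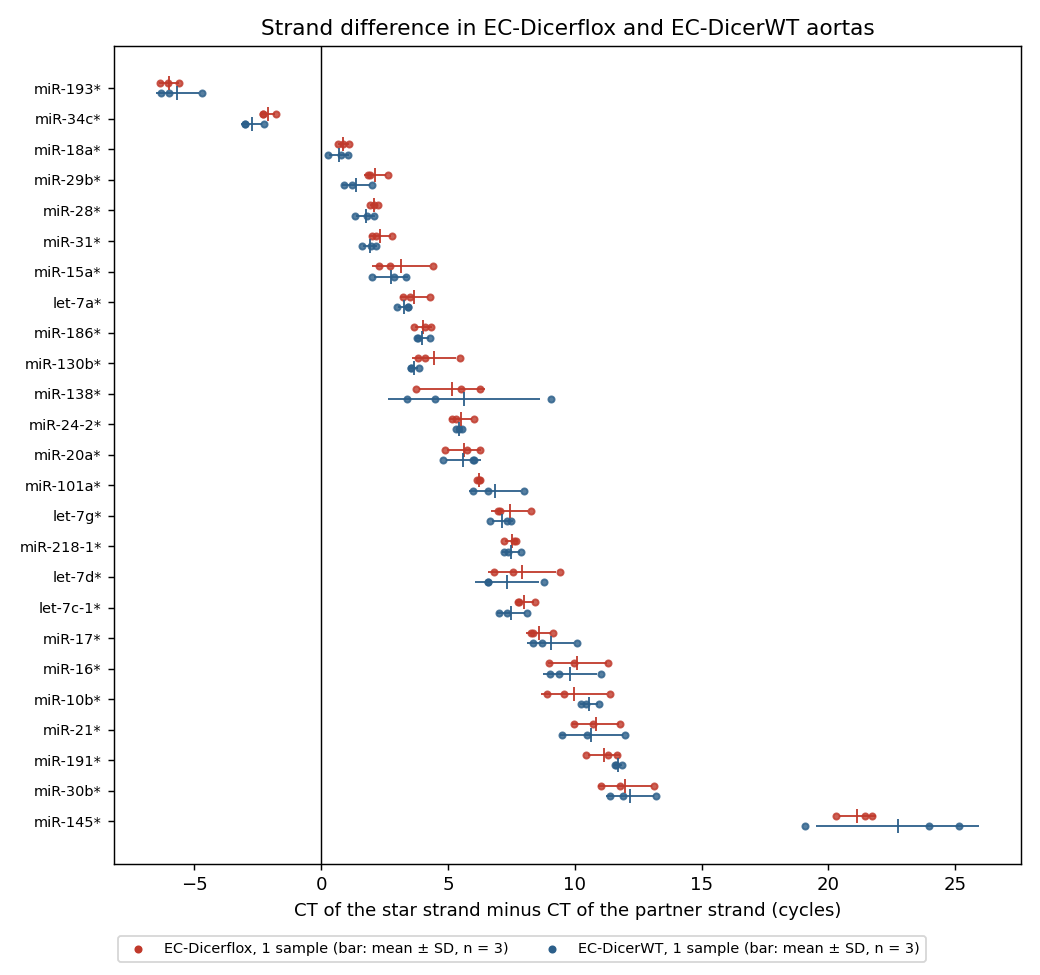
CT of the star strand minus CT of the partner strand (x axis, in cycles) in EC-Dicerflox and EC-DicerWT aortas for 25 hairpins with both strands present in all 6; points are single aortas, and bars show the mean ± SD of 3 mice per group. Values to the left of 0, as for miR-193* and miR-34c*, mean a star strand with a lower CT than its partner, and the groups overlap in every hairpin.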

How the data were processed

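Total RNA of whole aortas was isolated with the mirVana kit, turned into cDNA and amplified in advance with Megaplex rodent primer pools, and measured on TaqMan microRNA cards in a real-time cycler, according to the study's methods. The authors deposited CT values, in cycles (close to a log2 scale), with no normalization and with 40 for wells that gave no signal. The threshold and baseline settings are not given in the sources used here. All 6 columns were assigned by name, and 0 were left out. With 3 arrays per group, their number limits the precision.

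CTs were subtracted from the mean of 4 control values (U6 and snoRNA135 on both cards), and limma 3.58.1 (lmFit, eBayes; R 4.3.3) was fitted to the groups over all 461 miRNAs detected in 1 or more aortas (CT under 40), with p-values adjusted by Benjamini-Hochberg. Strand differences (star minus partner CT) were fitted over the 51 pairs with both strands under 40 in all 6 aortas, and single values were also compared by exact permutation (20 arrangements). Where a partner was listed on both cards, the assay of the first set was used. Wells at 40 entered the level fit as 40. The tests were tested on simulated data. P-values measure the spread between these mice.

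The star strands and lists were chosen with earlier results of these data known. Values were given for the 10 star strands with the lowest CT, those above their partner, the 5 smallest and 5 largest differences, and vessel miRNAs by count. Other values, such as those of miR-191*, were chosen after they were seen. Same-numbered samples deviated together (correlations of 0.15, 0.224 and 0.431 across the groups), so the number was also tried as a block; EC-Dicerflox replicate 1 correlated more with EC-DicerWT replicate 2 (0.285). The other alternatives were missing or capped late wells, other control RNAs, other filters, other variance models and leaving out each mouse. Star names were matched to RefSeq arm names by hand. Tables and figures were made in Python 3.11.15 with pandas 2.3.3 and matplotlib 3.10.9.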

Additional observations from a re-analysis of the deposited data

How the results depend on the processing

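The 2 star strands above their partner, miR-193* and miR-34c*, were found under each alternative run for that count (missing or capped late wells, control RNAs of the same card, both strands under a CT of 35, the star strand higher in all 6 aortas, the other partners of miR-125b* and miR-10b*, and leaving out each mouse). The settings for late wells, single mice and all 6 aortas could not remove either of these 2 hairpins. Their strands had the same order in all 6 aortas, with every CT under 35. The detected number was 32, 29 (CT under 35), 27 (all 6 aortas) or 30 to 32 (leaving out each mouse). The median strand difference of 5.62 cycles was 5.94 with control RNAs of the same card, 6.08 with miR-125b-5p as the partner of miR-125b*, an alternative chosen after seeing the data, and 5.49 to 5.81 when leaving out each mouse. The number of star strands with an unadjusted limma p under 0.05 between genotypes was 0, and 0 to 2 when leaving out each mouse: miR-10b* and miR-191* without EC-Dicerflox replicate 2, miR-145* (log2 fold change 3.50, limma p 0.0312) without EC-DicerWT replicate 1, and miR-101a* (1.42, limma p 0.0378) and miR-196a* (-4.26, limma p 0.00587) without EC-DicerWT replicate 2. For strand differences it was 0, and 0 to 2: miR-10b* (-1.30 cycles, limma p 0.032) without EC-Dicerflox replicate 2, miR-145* (-3.42, limma p 0.00296) and miR-29b* (1.08, limma p 0.0386) without EC-DicerWT replicate 1, and miR-34c* (0.88, limma p 0.037) without EC-DicerWT replicate 3. None passed adjustment. With the replicate number as a block, both counts were 0 and no call changed. The cause of these shifts was not tested. Signals above a CT of 35 were spread over several cycles and limit what can be said of miR-145*, miR-146b* and miR-196a*.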
